A study of Mus musculus with 6 samples.

Results

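The genes described here encode the exchangers and cotransporters that move sodium, protons, chloride and bicarbonate across the membranes of intestinal cells. They were chosen by name: every gene whose symbol on the array starts with Slc4a, Slc9a, Slc12a or Slc26a, 38 of the 19938 genes measured. The Slc4 group had 10 members, Slc9 had 9, Slc12 had 8 and Slc26 had 11. Of the 38, 35 are transporters, and the other 3 (Slc4a1ap, Slc9a3r1 and Slc9a3r2) share the name of a transporter whose product they bind. RNA of whole ileum was measured on Affymetrix mouse arrays, 1 array per mouse. The 3 control mice carried Villin-CreERT2, a Cre recombinase that tamoxifen activates in cells where the Villin promoter works, which are those of the intestinal epithelium. The 3 mice labelled Gata6 KO carried the same Cre and floxed Gata6 (GATA6 flox/flox), the gene of a zinc finger DNA-binding protein. All mice of both groups were given tamoxifen (100 mg/ml in the labels) on 5 consecutive days at 6 to 8 weeks of age, and ileum was taken 28 days later, at 10 to 12 weeks. The tissue includes muscle, nerve and connective tissue, where that promoter is not active.

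The ileum absorbs salt by pairing a sodium-proton exchanger of the Slc9 family with a chloride-bicarbonate exchanger of the Slc26 family in the brush border. Cells that secrete chloride load it across the basolateral membrane through the sodium-potassium-chloride cotransporter of the Slc12 family, and Slc4 proteins move bicarbonate across that same membrane. PDZ proteins of the NHERF group hold several of the brush border exchangers in place.

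Array medians lay between 3.33 and 3.44 on the log2 scale, and arrays of 1 group correlated at 0.987 to 0.992 against 0.980 to 0.984 between groups. Gata6 itself read higher in the arrays labelled Gata6 KO, at 6.93, 6.81 and 6.86 on the log2 scale against 6.31, 6.33 and 6.50 in controls (log2 fold change 0.49, SE 0.08, limma adjusted p = 0.0162). That call ended without control replicate 1 (0.05011) or without Gata6 KO replicate 1, 2 or 3 (0.05836, 0.05732 and 0.06228). No source used here says whether its probe set covers the deleted part, so directions refer to the arrays labelled Gata6 KO. Control replicate 3 had the Xist and Y-linked signals of a male, unlike the other 5 arrays. Control replicate 1 stood apart in some genes typical of colon, with a mean log2 signal of 6.89 over 9 such genes against 5.68 and 5.76 in the other controls. In the arrays labelled Gata6 KO that mean was 7.81 to 8.46. The gap between controls lay in Aqp8, Car1 and Cyp2c55, at 5.60, 10.96 and 7.38 in control replicate 1. The other controls read 2.84 to 6.87 in these genes. In the rest of the list control replicate 1 lay close to another control. Results that rest on those control arrays are also given without them.

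The comparison asked which of these transport genes differed between the ileum of mice labelled Gata6 KO and control ileum. The apical anion exchanger Slc26a6 fell 3.98-fold, and the NHERF scaffold Slc9a3r1 fell 1.44-fold. The sodium-proton exchanger Slc9a2 rose 1.47-fold and the basolateral anion exchanger Slc4a2 rose 1.60-fold. The other 34 members did not pass at a limma adjusted p of 0.05 over all genes. Among all genes tested 8.24% passed, 4.99% higher and 3.25% lower, so 4 of 38 members is a share near the background. With arrays centred on their medians, 1562 genes were called higher and 565 lower, in place of 995 and 648. In 11 of 38 members the 3 arrays of one group all lay above the 3 of the other, against 29.3% of all genes. The median log2 fold change was -0.06 over the members and -0.004 over all genes. In 16 members both group means lay below the array medians, and none of these passed (limma; none had an unadjusted p under 0.05). Of the 22 brighter members 4 passed, against 1522 of 12387 genes of that brightness.

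**Figure D1:**
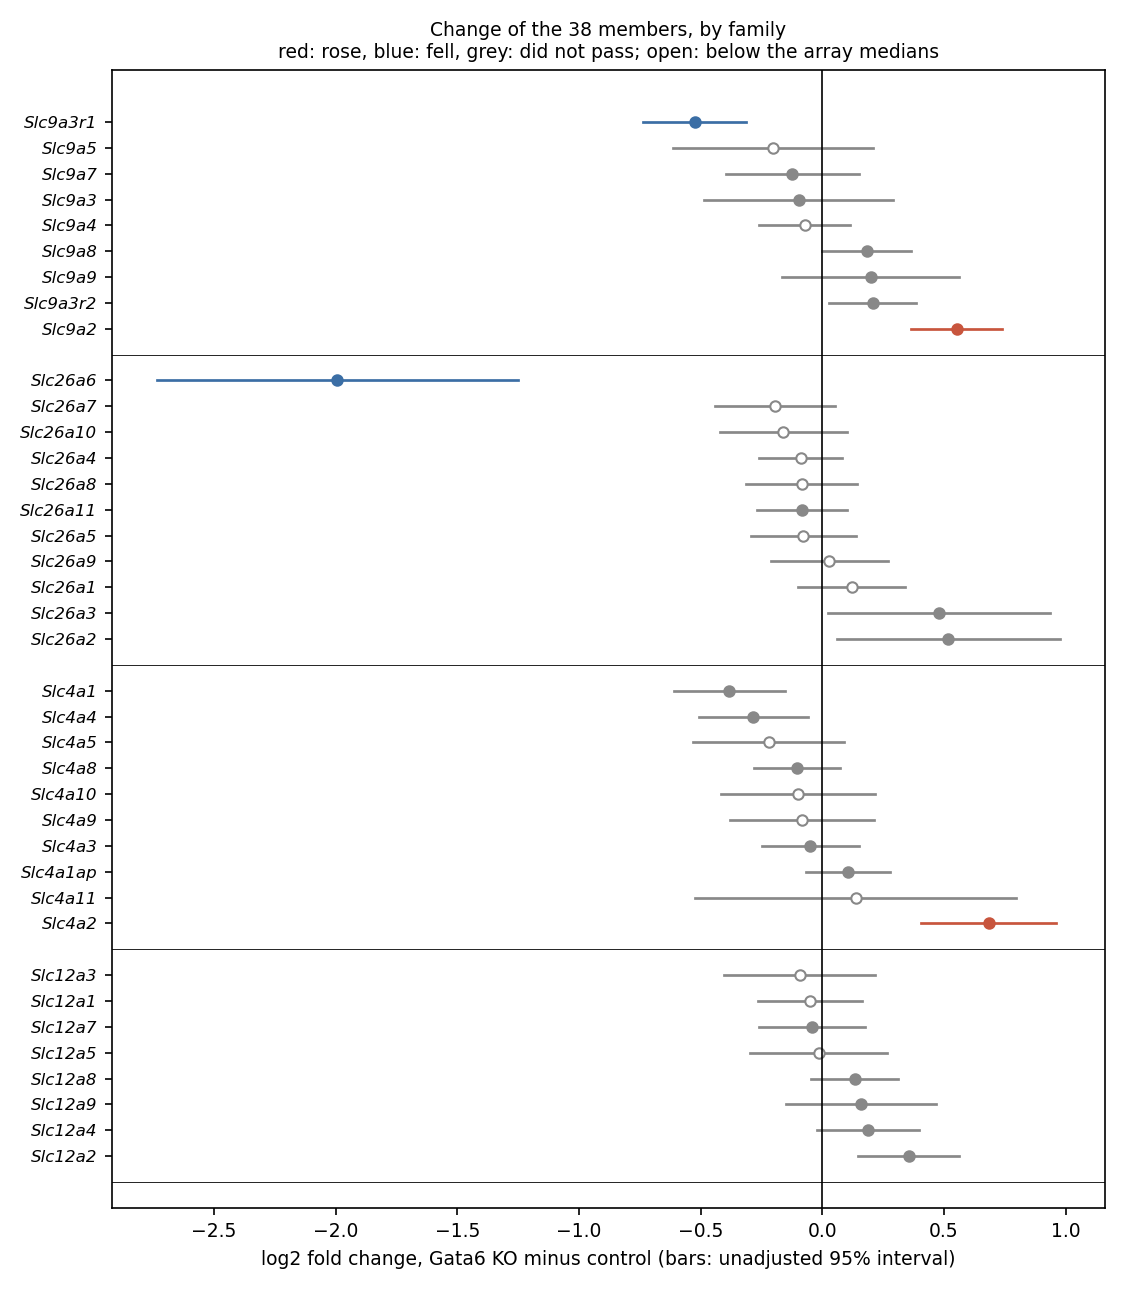
Log2 fold change (Gata6 KO minus control, n = 3 per group) of each of the 38 members, grouped by family, with unadjusted 95% intervals; open circles mark genes whose group means both lay below the array medians. Slc26a6 lies at -1.99, Slc9a3r1, Slc9a2 and Slc4a2 lie between -0.53 and 0.68, and the 34 grey genes that did not pass lie within 0.52 of 0.

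Among the sodium-proton exchangers, Slc9a2, a brush border isoform, read 8.20, 8.32 and 8.39 in control ileum and 8.84, 8.88 and 8.85 in the KO-labelled ileum. The groups did not overlap, and the KO-labelled arrays lay close together. Its log2 fold change was 0.55 (SE 0.08, limma adjusted p = 0.00839), and it kept the call without each of the 6 arrays in turn (0.0229 to 0.0470). Slc9a3, the main exchanger of sodium absorption in the ileum, read 6.02, 6.08 and 6.25 in controls and 5.99, 6.36 and 5.70 in KO-labelled arrays. Here the groups overlapped, with Gata6 KO replicate 2 the highest of all 6 arrays and replicate 3 the lowest. The difference was -0.10 on the log2 scale (95% interval -0.49 to 0.29, limma adjusted p = 0.761). That interval takes in both a modest fall and a modest rise of Slc9a3. Its SD was 0.33 in KO-labelled arrays and 0.12 in controls (n = 3 per group). The log2 fold change of Slc9a3 minus that of Slc9a2 was -0.65, a difference between members picked after their values were seen and therefore not tested.

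Slc9a8, an exchanger of the brush border and of Golgi membranes, lay higher in all 3 KO-labelled arrays (6.54, 6.54 and 6.51) than in the controls (6.43, 6.25 and 6.37). The difference of 0.18 did not pass (limma adjusted p = 0.202). The endosomal Slc9a9 had a log2 fold change of 0.20 and the Golgi isoform Slc9a7 one of -0.12, with overlapping groups. The basolateral isoform Slc9a4 and the neuronal isoform Slc9a5 lay below the array medians in both groups. Of the 7 exchangers of this family 1 rose, none fell and 6 did not pass, where 8.24% of all genes passed.

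In the Slc26 family, Slc26a6, which exchanges chloride for bicarbonate and oxalate at the brush border, read 7.22, 7.93 and 7.83 in the controls. In the arrays labelled Gata6 KO it read 5.19, 5.46 and 6.35. All 3 lay below every control, and Gata6 KO replicate 3 was the highest of them. The log2 fold change was -1.99 (SE 0.32, limma adjusted p = 0.0121), the only change beyond 2-fold among the 38 members. The call ended without control replicate 3 (0.06209) or Gata6 KO replicate 2 (0.06502), at log2 fold changes of -1.91 and -1.89. Without control replicates 1 and 3 together the log2 fold change was -2.26 and the adjusted p 0.173; that fit left 1 control and gave 0.53 for Slc9a2 (0.1104), 0.57 for Slc4a2 (0.2752) and -0.49 for Slc9a3r1 (0.1657).

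Most markers of the absorptive enterocyte, the cell in which Slc26a6 works, moved in the same direction. Of 11 such markers 6 fell and none rose, against 3.25% and 4.99% of all genes. Fabp1, below the array medians in both groups, went the other way (0.31, limma adjusted p = 0.274). The mean log2 signal of the 11 was 6.99 to 7.41 in controls and 5.96 to 6.43 in the arrays labelled Gata6 KO. A fall was not particular to enterocytes: of 9 enteroendocrine markers 5 fell and none rose. Sucrase-isomaltase, Sis, fell from 9.49, 9.72 and 9.80 to 5.21, 5.95 and 7.02, with Gata6 KO replicate 3 again the highest of its group. In whole tissue, fewer cells of a type and less RNA per cell cannot be told apart, and the part of the enterocyte markers in the change of Slc26a6 was not tested.

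Slc26a3, the chloride-bicarbonate exchanger lost in congenital chloride diarrhoea, did not follow Slc26a6. Its signal was 7.31, 7.44 and 7.34 in controls and 7.41, 8.25 and 7.88 in KO-labelled arrays, so that Gata6 KO replicate 1 lay among the controls. The difference of 0.48 (95% interval 0.03 to 0.94) had a limma adjusted p of 0.185, and without Gata6 KO replicate 1 it was 0.70 with an adjusted p of 0.04724. Against Slc26a3 within the same arrays, the difference in log2 fold change (Slc26a6 minus Slc26a3) was -2.47, with SDs of that difference of 0.33 in controls and 0.63 in KO-labelled arrays (n = 3 per group, not tested).

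Slc26a2, a sulfate transporter, read 7.29, 7.94 and 7.18 in controls and 7.86, 8.06 and 8.04 in KO-labelled arrays. Control replicate 2 lay within the range of the KO-labelled arrays. A difference of 0.52 did not pass (limma adjusted p = 0.159), and without control replicate 2 it was 0.75 with an adjusted p of 0.01687. Slc26a11, a widely expressed anion transporter, had a log2 fold change of -0.08. The other 7 members, Slc26a1, Slc26a4, Slc26a5, Slc26a7, Slc26a8, Slc26a9 and Slc26a10, lay below the array medians in both groups. They include pendrin (Slc26a4) and prestin (Slc26a5), which are known from the inner ear. In total 1 of 11 Slc26 members fell, none rose and 10 did not pass, a share near the 8.24% of all genes that passed.

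**Figure D2:**
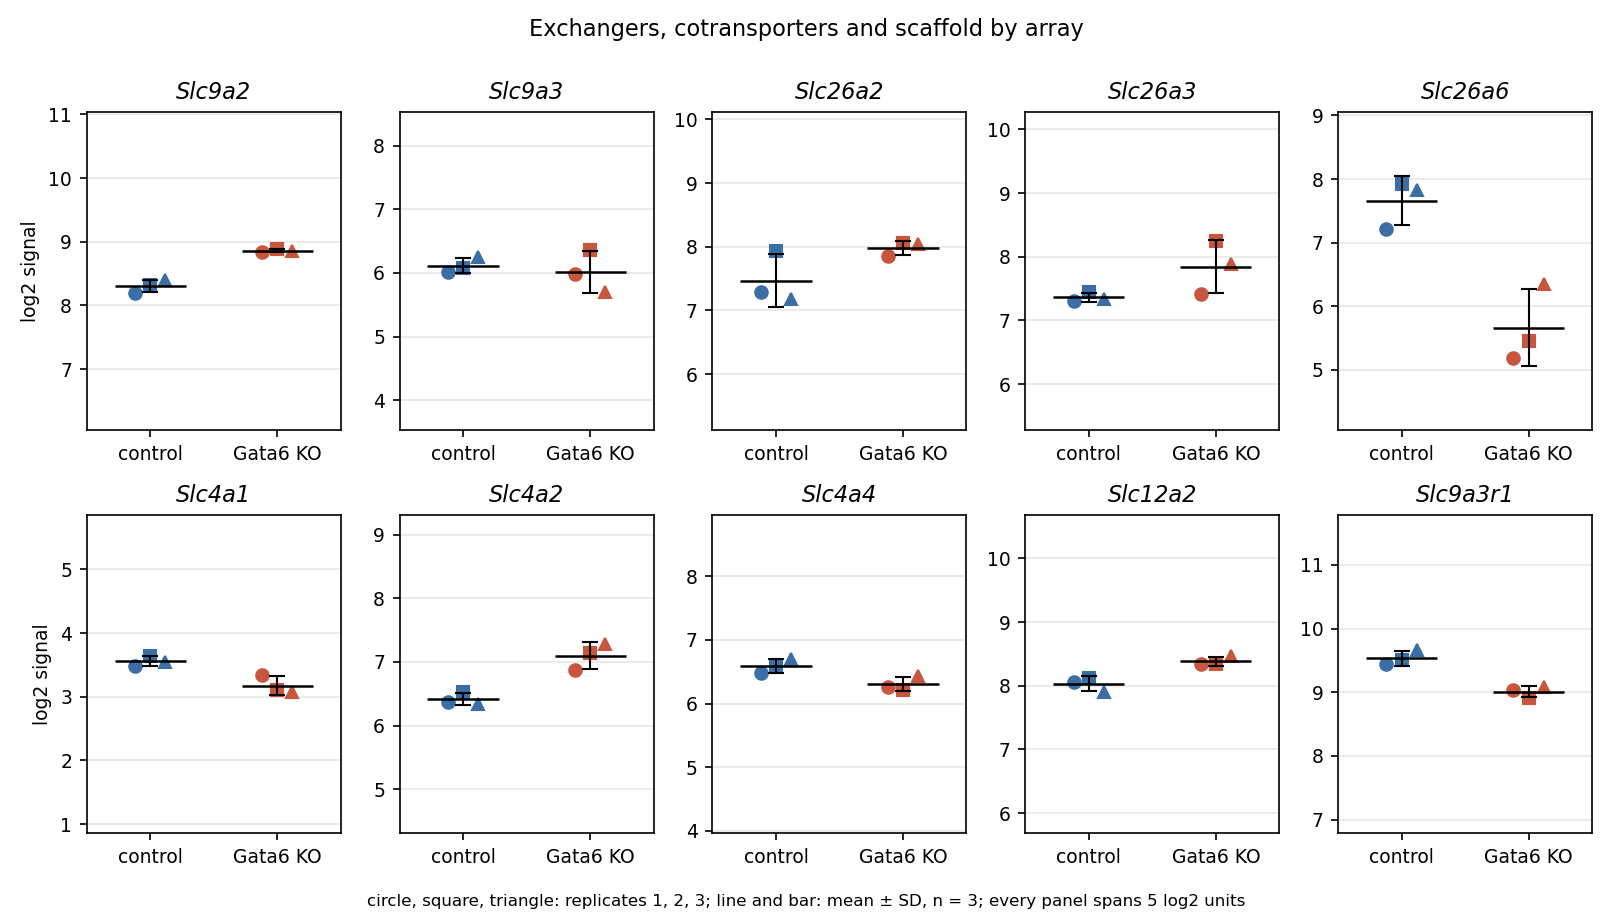
Log2 signal of 10 members in each array (blue, control; red, labelled Gata6 KO), with the mean and SD of 3 arrays per group; every panel spans 5 log2 units. Slc26a6 is lower in all 3 KO-labelled arrays (5.19 to 6.35) than in controls (7.22 to 7.93), Slc9a2 and Slc4a2 are higher in all 3, and Slc9a3 overlaps between groups.

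Gata6, the gene the labels name, encodes a GATA factor, and the promoters of the members that fell are shown as reference sequence, without any measurement of binding. The 250 bases before the RefSeq start site (GRCm38.p6, plus strand, 5′ to 3′) follow, with CG dinucleotides in capitals. Slc26a6 lies at chr9:108853793-108854042 and Slc9a3r1 at chr11:115163091-115163340.
Slc26a6: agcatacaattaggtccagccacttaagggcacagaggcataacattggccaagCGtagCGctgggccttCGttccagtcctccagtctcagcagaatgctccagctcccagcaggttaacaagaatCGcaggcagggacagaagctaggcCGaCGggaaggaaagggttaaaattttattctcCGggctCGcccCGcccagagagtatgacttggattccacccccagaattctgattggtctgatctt
Slc9a3r1: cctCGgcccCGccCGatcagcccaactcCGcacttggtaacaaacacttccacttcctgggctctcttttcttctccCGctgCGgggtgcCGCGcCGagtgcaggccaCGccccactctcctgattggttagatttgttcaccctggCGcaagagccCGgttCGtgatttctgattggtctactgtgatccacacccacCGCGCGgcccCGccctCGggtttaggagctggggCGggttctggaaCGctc
The first window holds 9 CG dinucleotides and the second 20, against a median of 6 over all 32851 promoter windows of the same table. Windows of 300 bases, 250 before and 50 from the start site, were searched for the GATA hexamers AGATAA and TGATAA on both strands. No match was found in the windows of Slc26a6, Slc9a3r1 or Slc4a2, while 18.6% of all windows held at least 1. Slc9a2, which also passed, had no window in the promoter set and was not searched. Over the 29 members with an entry, 9 had a match in at least 1 window, or 10 of 38 windows (26.3%). These counts describe letters in a short window and do not bear on sites elsewhere.

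Of the Slc4 bicarbonate transporters, Slc4a2, the basolateral anion exchanger AE2, read 6.38, 6.52 and 6.34 in controls and 6.87, 7.15 and 7.28 in KO-labelled arrays. All 3 KO-labelled arrays lay above the controls. The log2 fold change was 0.68 (SE 0.12, limma adjusted p = 0.0171). The call ended without 1 of the control arrays 1 (0.058) and 3 (0.07475) or of the Gata6 KO arrays 2 (0.08126) and 3 (0.05901), with log2 fold changes of 0.59 to 0.80 over the 6 such fits. The sodium-bicarbonate cotransporter Slc4a4 lay lower in all 3 KO-labelled arrays, at 6.26, 6.22 and 6.43 against 6.48, 6.57 and 6.71. Its log2 fold change of -0.28 (95% interval -0.51 to -0.06) did not pass (limma adjusted p = 0.124).

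Slc4a1, the anion exchanger of red blood cells, read 3.48, 3.64 and 3.54 in controls and 3.34, 3.11 and 3.07 in KO-labelled arrays, near the array medians. The groups did not overlap, and the difference of -0.38 did not pass (limma adjusted p = 0.0586); without Gata6 KO replicate 1 the adjusted p was 0.04648. The 4 measured red blood cell genes, Slc4a1 among them, had a mean log2 signal of 3.12 to 3.42 in controls and 2.94 to 3.14 in KO-labelled arrays, and none passed. Slc4a3 and the sodium-driven exchanger Slc4a8 had log2 fold changes of -0.05 and -0.10 with overlapping groups. A second, dimmer probe set of Slc4a3, at a mean of 1.23, differed by -0.11. Slc4a5, Slc4a9, Slc4a10 and Slc4a11 lay below the array medians in both groups; the widest interval, -0.52 to 0.80, was that of Slc4a11. In this family 1 of 9 transporters rose, none fell and 8 did not pass, where 8.24% of all genes passed.

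In the Slc12 family, which includes the cation-chloride cotransporters, no member passed among 8 (limma), against 8.24% of all genes. Among the 8, 1 member, Slc12a2, had an unadjusted p under 0.05, as did 4928 of all 19938 genes. Slc12a2, the basolateral cotransporter NKCC1 that loads secretory cells with chloride, read 8.06, 8.13 and 7.90 in controls. In the arrays labelled Gata6 KO it read 8.34, 8.35 and 8.47, all above the controls. The log2 fold change was 0.35 (SE 0.09, 95% interval 0.15 to 0.56) and the adjusted p 0.0553, just outside the threshold. It passed when each array was centred on its median (0.41, adjusted p = 0.03628), and under the 3 other settings given in the closing section. Slc12a8 was 7.12, 7.17 and 7.26 in controls against 7.28, 7.30 and 7.36, a difference of 0.13 (limma adjusted p = 0.327). The potassium-chloride cotransporters Slc12a4 and Slc12a7 and the less studied Slc12a9 had log2 fold changes of 0.19, -0.04 and 0.16 with overlapping groups. The kidney cotransporters Slc12a1 and Slc12a3 and the neuronal Slc12a5 lay below the array medians in both groups.

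Of the members that are not transporters, Slc9a3r1 (NHERF1), a PDZ protein that ties brush border exchangers to ezrin, read 9.44, 9.50 and 9.66 in controls and 9.03, 8.91 and 9.08 in KO-labelled arrays. Every KO-labelled array lay below every control. The log2 fold change was -0.53 (SE 0.09, limma adjusted p = 0.0167). The call ended without control replicate 3 (0.05762) and without Gata6 KO replicate 1 (0.05545) or 2 (0.07398). Its relative Slc9a3r2 (NHERF2) lay higher in all 3 KO-labelled arrays (5.08, 5.16 and 5.23 against 4.90, 4.96 and 4.99), a difference of 0.21 that did not pass (limma adjusted p = 0.150). Slc4a1ap, which encodes the nuclear protein kanadaptin, differed by 0.11 (limma adjusted p = 0.425).

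Partners of these transporters were read from 3 further lists. These lists were chosen with earlier results of these data known, so the shares that passed are description and not a test. Of 29 scaffolds and regulators measured, 5 rose, 3 fell and 21 did not pass. Their median log2 fold change was 0.10. The share that passed was 27.6%, against 8.24% of all genes and 12.3% of genes not below the array medians in both groups. The 12.3% leaves out dim genes, of which this list holds 3. Pdzk1 (NHERF3), the PDZ scaffold of brush border exchangers, fell from 6.10, 7.56 and 7.03 to 3.61, 3.58 and 4.52. It differed by -2.99 on the log2 scale (SE 0.40, limma adjusted p = 0.00620). As for Slc26a6, control replicate 1 was the lowest control and Gata6 KO replicate 3 the highest of its group. Chp2 and Chp1 encode calcium-binding cofactors of sodium-proton exchangers, and they moved apart. Chp2 fell from 6.47, 6.66 and 6.83 to 4.11, 4.86 and 4.73 (log2 fold change -2.08, SE 0.20, limma adjusted p = 0.00172). Chp1 rose from 8.34, 8.34 and 8.23 to 8.74, 9.02 and 8.79 (0.55, SE 0.09, limma adjusted p = 0.0170). Pdzk1 and Chp2 kept the call without each of the 6 arrays in turn (highest adjusted p 0.0402 and 0.0149), while Chp1 lost it without control replicate 3 (0.07044) or Gata6 KO replicate 2 (0.05506) or 3 (0.05468).

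**Figure D3:**
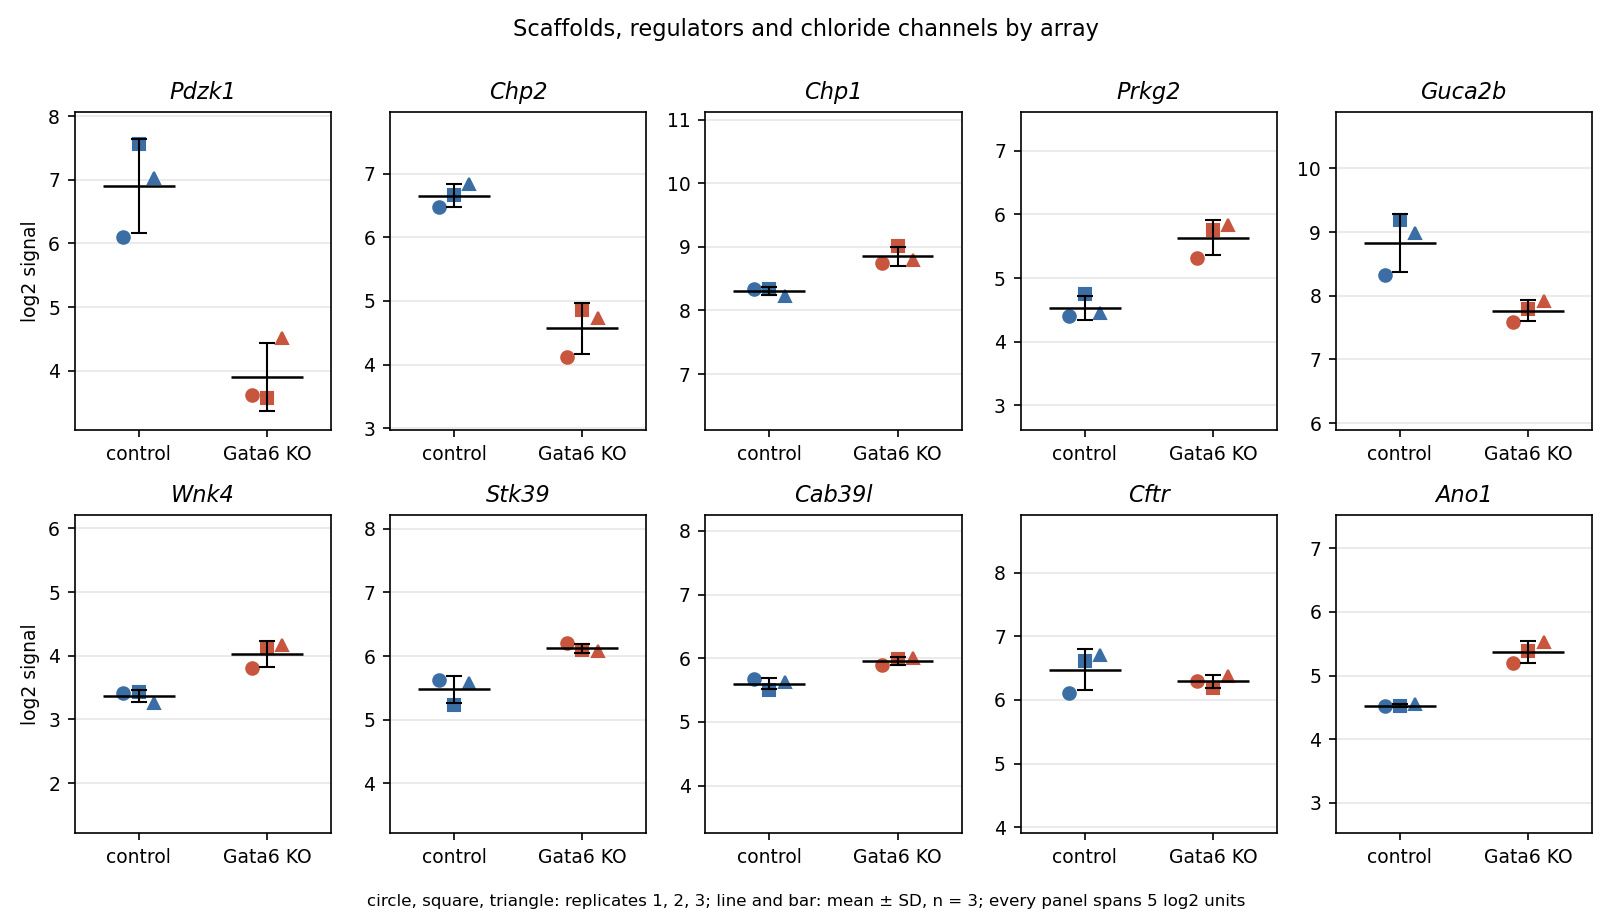
Log2 signal of 8 scaffolds and regulators and of the chloride channel genes Cftr and Ano1 in each array (blue, control; red, labelled Gata6 KO), with the mean and SD of 3 arrays per group; every panel spans 5 log2 units. Pdzk1, Chp2 and Guca2b are lower in all 3 KO-labelled arrays, Chp1, Prkg2, Wnk4, Stk39, Cab39l and Ano1 are higher in all 3, and Cftr overlaps.

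Of the kinases on that list Prkg2, Wnk4 and Stk39 rose, while Wnk1, Wnk2, Wnk3, Oxsr1, Sgk1, Sgk2, Sgk3 and Mast1 did not pass (limma adjusted p 0.106 to 0.954). Prkg2, the cGMP-dependent kinase that inhibits Slc9a3, rose by 1.10 (SE 0.16, limma adjusted p = 0.00840), from 4.40, 4.75 and 4.45 to 5.32, 5.76 and 5.83, and kept the call without each array; a second, dim probe set differed by 0.20. The kinase Wnk4 rose by 0.66 (SE 0.12, limma adjusted p = 0.0173), from a control mean of 3.37 near the array medians. Stk39 (SPAK), which WNK kinases activate and which phosphorylates Slc12a2, rose by 0.65 (limma adjusted p = 0.0197), and its adaptor Cab39l rose by 0.36 (0.0400). The hormone uroguanylin, Guca2b, fell by 1.07 (limma adjusted p = 0.0293). Stk39, Cab39l and Guca2b were named after their values were seen. Cab39l lost the call without any 1 of the 6 arrays (0.06093 to 0.1415). Wnk4 lost it without control replicate 3 (0.07369) or Gata6 KO replicate 2 (0.08236) or 3 (0.06831), and Stk39 without control replicate 3 (0.05414) or Gata6 KO replicate 1 (0.07554), 2 (0.0785) or 3 (0.065). Guca2b kept it only without control replicate 1 (0.006612), and the other 5 such fits gave 0.06304 to 0.115.

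Of 28 pumps, channels and related genes measured, 3 rose, 2 fell and 23 did not pass, and the list's median lay at 0.03. The share that passed was 17.9%, against 8.24% of all genes and 12.3% of genes not below the array medians in both groups. The 12.3% leaves out dim genes, of which this list holds 6. The calcium-activated chloride channel Ano1 rose from 4.52, 4.53 and 4.55 to 5.20, 5.39 and 5.53 (log2 fold change 0.84, SE 0.10, limma adjusted p = 0.00378), a call kept without each array. Ano1 also marks the pacemaker cells of the gut wall, and their receptor Kit rose too (0.67, limma adjusted p = 0.0109, and 0.0586 without Gata6 KO replicate 2). Their other measured markers, Etv1 and Thbs4, did not pass and overlapped between groups (0.19 and 0.09, limma adjusted p = 0.6412 and 0.6675). The part of those cells was not tested. Cftr, the main chloride channel of secretion, differed by -0.18 with overlapping groups (95% interval -0.56 to 0.19, limma adjusted p = 0.530). Clca4b fell by 1.32 and the endosomal exchanger Clcn5 fell by 0.71, while the calcium pump Atp2b1 rose by 0.48 and the potassium channel Kcnma1 rose by 0.37 (limma adjusted p 0.0204 to 0.0335). Each of these 4 calls ended without at least 4 of the 6 arrays in turn. Clca4b lost it without control replicates 2 and 3 and Gata6 KO replicates 2 and 3 (0.06176 to 0.08661). Clcn5 kept it only without Gata6 KO replicate 3 (0.05992 to 0.1025 in the other 5 fits) and Atp2b1 only without control replicate 2 (0.06096 to 0.1228 in the others). Kcnma1 lost it without any 1 array (0.05679 to 0.1185), and its second, dim probe set differed by -0.29.

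Carbonic anhydrases supply the protons and bicarbonate that these exchangers move. Of 16 measured, 3 rose, none fell and 13 did not pass, at a median log2 fold change of 0.09. The share that passed was 18.8%, against 8.24% of all genes and 12.3% of genes not below the array medians in both groups. The 12.3% leaves out dim genes, of which this list holds 6. Car12, a membrane-bound form, rose from 6.39, 6.17 and 6.09 to 7.20, 7.66 and 7.61 (log2 fold change 1.28, SE 0.14, limma adjusted p = 0.00337). Car8, a related protein without catalytic activity, rose from 5.43, 5.50 and 5.76 to 6.64, 6.83 and 7.01 (1.26, SE 0.13, limma adjusted p = 0.00222), and both kept the call without each array. The cytosolic Car2 rose from 5.18, 3.77 and 3.24 to 5.92, 8.24 and 7.79 (3.25, SE 0.68, limma adjusted p = 0.0321), with control replicate 1 the highest control. It lost the call without control replicate 2 (0.08281) or 3 (0.1189) or Gata6 KO replicate 2 (0.1226) or 3 (0.1078). Car1 did not pass with all arrays (limma adjusted p = 0.0722); control replicate 1, at 10.96, stood apart from the other controls at 5.68 and 6.87, and without it the adjusted p was 0.001538. Of the 9 genes typical of colon, Car1 and Car4 among them, 5 rose and none fell, against 4.99% and 3.25% of all genes. Car4 had a log2 fold change of 0.03 (limma adjusted p = 0.965). The part of the colon signal in these changes was not tested. Car5b, the mitochondrial form, differed by 0.77 (limma adjusted p = 0.104), and without control replicate 1 by 1.05 (0.02034).

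Smooth muscle markers moved with the groups as well. All 10 had log2 fold changes above 0 (0.19 to 0.46), 1 of them, Tagln, passed (limma adjusted p = 0.0389, and 0.1105 to 0.1423 without control replicate 1 or 3 or Gata6 KO replicate 2 or 3), and their mean log2 signal was 7.55 to 7.75 in controls and 7.74 to 8.09 in the arrays labelled Gata6 KO. The 7 fibroblast markers also had log2 fold changes above 0 (0.21 to 0.77), and none passed (limma; 5 had an unadjusted p under 0.05). Of the 10 smooth muscle markers 8 had an unadjusted p under 0.05, as did 4928 of all 19938 genes (limma). The adjusted threshold was met by 8.24% of all genes, so 1 of 10 smooth muscle markers is a share near the background. The log2 fold changes of all genes had their median at -0.004. With the smooth muscle mean as a covariate none of the 4 members passed, in a fit that called 104 of all genes where 1643 were called without it. In that fit the log2 fold change of Slc4a2 was 0.36 in place of 0.68 (limma adjusted p = 0.374), that of Slc9a2 0.50, that of Slc9a3r1 -0.49 and that of Slc26a6 -2.72. Of the partner genes Chp2 alone passed in that fit (0.01507). Why the values moved in that fit was not tested.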

How the data were processed

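The table the authors deposited holds log2 signals of 6 arrays, 1 per mouse. Per the submitters' processing notes they came from the Affymetrix Expression Console; no source used here gives its version or its background, normalization and summary methods. That the base is 2 was read from the span of the values. Of 35557 probe sets 21789 had exactly 1 symbol in the platform annotation, 1621 had several and 12147 were not listed; only the first kind was used, and no member had a probe set with several. The brightest probe set by mean over the 6 arrays stood for each of 19938 genes.

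Each gene was fitted with limma 3.58.1 under R 4.3.3 (lmFit, eBayes; Gata6 KO minus control, two-sided, Benjamini-Hochberg over all 19938 genes, threshold 0.05), with no filter on dim genes. The SE and the 95% interval are the moderated, unadjusted ones. The fit was also run on simulated arrays with known changes. Their noise was independent and of the same spread in every array, so that run does not cover the differences between control arrays given above. The series' design text counts 3 separate mice in each group; the number of arrays limits the precision. Members and lists were chosen with earlier results of these data known. Values in every array are given for members that passed or changed at least 2-fold and for a list of intestinal transporters. They are also given for Slc9a8, Slc12a8 and Slc9a3r2, outside that rule, whose groups did not overlap and which did not pass. Of each partner list up to 5 genes with the smallest p were named, plus Cftr, Pdzk1 and Chp2, some by their fold change alone. Other cell types were read from marker lists. Promoter sequences are those of RefSeq (GRCm38.p6). Figures were drawn with matplotlib 3.10.9.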

Additional observations from a re-analysis of the deposited data

How the results depend on the processing

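Alternatives covered scaling, filtering, probe set choice, moderation, array weights, a muscle covariate, the replicate number as a block and left-out arrays. Slc26a6, Slc9a2, Slc4a2 and Slc9a3r1 kept their direction in all 17; none of them kept the call with no moderation, with the muscle covariate or with control replicates 1 and 3 left out. With 1 array left out, members that passed numbered 1 to 3 higher and 0 to 2 lower. By family these counts ran from 0 to 1 for Slc4 higher, Slc4 lower, Slc9 lower, Slc26 higher and Slc26 lower; partners ran from 4 to 10 higher and 2 to 4 lower. With no moderation or with the muscle covariate 0 members passed in either direction, and so for Slc4, Slc9 and Slc26 taken singly; partners were 0 higher and 0 lower with no moderation, and 0 higher and 1 lower with the covariate. With control replicates 1 and 3 left out, the lone control is assumed to vary like the other group, 0 members passed, and partners were 1 higher and 0 lower. Fitting every probe set on its own left 1 member higher, 0 in Slc4 (Slc4a2 at an adjusted p of 0.05453), and partners 4 higher and 2 lower. In Slc12, 1 gene, Slc12a2, rose on arrays centred on their medians, with only genes above the median mean (0.02741), with trend and robust moderation (0.02736) and with array weights (0.03807); with array weights 1 Slc4 gene, Slc4a1, also fell (0.04283). Slc9a3 ran from -0.27 to 0.06 with 1 array left out, above 0 without Gata6 KO replicate 3 alone; Slc26a3 turned to -0.10 with the muscle covariate. Replicate numbers are shared between groups, but nothing in the labels pairs mice, and deviations of same-numbered arrays correlated at 0.04, -0.04 and 0.15 across genes, so the numbers were not taken to pair the samples; the replicate block gave 2 members higher and 2 lower, and 7 partners higher. The cause of these changes was not tested. Centring moved the median of all genes by 0.06. Members below the array medians are near the floor of the signal, where a difference is least measurable.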
